A study of Mus musculus with 31 samples.

Results

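The immediate early genes described here were 9 genes chosen as a named list: Fos, Jun, Junb, Egr1, Ier2, Ier3, Atf3, Dusp6 and Klf6. All 9 were found by symbol among the 46130 genes with an exonic entry in the table of 4-thiouridine (4sU) labelled RNA. Their exonic and intronic entries were summed per gene, and levels are given in TPM, the length-corrected share of a transcript in its library scaled to a common total. The names alone make the rule, though they were chosen with earlier results of these data known.

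Immediate early genes are switched on by growth factors and stress through existing transcription factors, without new protein synthesis. Many of their mRNAs are short-lived, and AU-rich elements in the 3′ untranslated region (UTR) are known to recruit proteins that speed their decay. FOS and JUN family proteins pair to form AP-1, EGR1 and KLF6 are zinc finger transcription factors, and DUSP6 removes phosphate from ERK kinases and so dampens the pathway that induces several of these genes. In mouse embryonic stem cells, ERK signalling downstream of FGF4 is known to keep Egr1 and Dusp6 transcribed.

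The study induced loss of Dicer1, whose product cuts microRNA precursors into mature microRNAs, and used metabolic labelling to ask how RNA decay differs between Dicer depleted and wild-type (WT) cells. The cells were the DTCM23/49 XY mouse embryonic stem cell lines with a conditional Dicer mutation, grown in serum and LIF on gelatin. Loss was induced with 800 nM 4-hydroxytamoxifen, and 4sU was then given at 200 µM for 10 or 15 minutes. The 16 libraries came from 2 Dicer depleted and 2 WT biological replicates, called cultures here, each with a labelled and a preexisting RNA library at 10 and at 15 minutes. The groups were thus Dicer depleted labelled, WT labelled, Dicer depleted preexisting and WT preexisting RNA, with 4 libraries each. Both genotypes are listed with 8 days of treatment, and the labels do not say whether WT cells received the drug or whether the lines are single clones. Preexisting libraries are titled as total RNA and characterised as preexisting, and the second name is used here.

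Dicer1, the targeted gene, averaged 2.69 ± 0.671 TPM in Dicer depleted preexisting RNA and 16.5 ± 1.42 TPM in WT preexisting RNA (SD of 2 culture means, n = 2, as in all values below). Its libraries ranged from 1.203 to 3.37 TPM in Dicer depleted and from 13.4 to 17.9 TPM in WT preexisting RNA. Its difference was -2.29 on the log2(TPM + 1) scale (limma, adjusted p = 0.0347). Without any 1 of the 4 cultures the Dicer1 difference was -2.07 to -2.52, with adjusted p of 0.182 to 0.388. All 10 embryonic stem cell markers averaged at least 1 TPM in every group, with summed levels of 1629 to 1752 TPM in Dicer depleted preexisting RNA and 1791 to 1944 TPM in WT preexisting RNA. The markers did not move together, and 5 of the 10 preexisting differences were positive. There Tdgf1 held 559.5 to 666.4 TPM in Dicer depleted and 722.6 to 1075 TPM in WT libraries. Nanog held 299.1 to 413.6 TPM in Dicer depleted and 226.9 to 279 TPM in WT libraries, and the other markers overlapped. Of 6 fibroblast markers, none averaged 1 TPM in Dicer depleted preexisting RNA and 1 did so in WT preexisting RNA, with sums of 0.47 to 1.06 TPM in Dicer depleted and 1.04 to 2.39 TPM in WT libraries. Of 6 primitive endoderm markers 2 averaged 1 TPM in Dicer depleted and 1 in WT preexisting RNA, with sums of 3.40 to 18.7 TPM and 3.31 to 8.60 TPM. Of 6 neural or mesoderm markers 3 did so in each genotype, with sums of 28.7 to 57.7 TPM in Dicer depleted and 26.8 to 32.1 TPM in WT libraries. Intronic entries took 18.4 to 23.2% of the signal in Dicer depleted labelled libraries and 15.5 to 18.4% in WT labelled libraries, against 5.37 to 6.68% and 4.41 to 5.49% in the preexisting libraries of each genotype. How deeply these libraries were sequenced is not known, and every library is scaled to one total, so a level is relative to its own fraction. In these bulk samples, fewer cells of a type and less RNA per cell cannot be told apart. P-values measure the spread between these cultures. The main fits held no culture term. Labelled against preexisting RNA and 15 against 10 minutes were thus compared without pairing within a culture.

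In the mm10 build, Fos lies on chromosome 12 (85473890 to 85477273, plus strand), Jun on chromosome 4 (95049034 to 95052222, minus strand) and Junb on chromosome 8 (84974484 to 84978718, minus strand). Atf3 lies on chromosome 1 (191170296 to 191218039, minus strand), Egr1 on chromosome 18 (34859823 to 34864984, plus strand) and Klf6 on chromosome 13 (5861482 to 5870394, plus strand). Ier2 lies on chromosome 8 (84661331 to 84662852, minus strand), Ier3 on chromosome 17 (35821684 to 35822923, plus strand) and Dusp6 on chromosome 10 (99263231 to 99267489, plus strand). Exonic entries cover the spliced transcripts of a gene, and intronic entries the introns of the same transcripts. Jun, Junb and Ier2 had no intronic entry, whereas the other 6 genes had 1 to 4.

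Over the 16 libraries Egr1 stood highest with a mean exonic level of 32.8 TPM. That placed it at the 93.1 percentile of 57193 exonic rows, which include entries matched to no gene. Shares, medians and percentiles given over all genes likewise count each unmatched entry as a gene. Klf6 followed with 7.83 TPM, Ier2 with 2.57, Dusp6 with 1.72 and Ier3 with 1.30 TPM. These 5 genes passed the filter of a mean of at least 1 TPM and entered the tests of exonic levels. Just outside it stood Jun with 0.993 TPM and Fos with 0.890 TPM, then Atf3 with 0.725 and Junb with 0.173 TPM. These stem cells thus held low exonic levels of Jun, Fos, Atf3 and Junb, and those 4 genes are given by their values. In WT preexisting RNA alone, the order was Egr1, Klf6, Ier2, Dusp6, Ier3, Fos, Atf3, Jun and Junb. There the libraries of Egr1 all lay above those of Klf6, and those of Klf6 above those of Ier2, while from Ier2 downward each gene overlapped the next in that order.

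The 3′ UTR letters of the genes are shown because AU-rich elements and microRNA seed sites are the known decay signals for this class. In the 1 coding transcript per gene with the longest coding part, the pentamer ATTTA was found in 8 of the 9 genes, and in 66.7% of the 10941 coding genes tested that have a 3′ UTR. Ier3 held 5 copies (8.16 per kb), Fos 4 (4.91 per kb), Junb 2 (4.12 per kb), Jun 4 (3.24 per kb), Atf3 3 (2.53 per kb), Klf6 7 (2.25 per kb), Egr1 2 (1.64 per kb) and Dusp6 1 (0.841 per kb), against 1.88 per kb over all these genes. No copy was found in the 755 bases of Ier2. The longer TATTTAT, which contains ATTTA, was found in Fos, Jun, Ier3, Atf3 and Klf6 and in 27.8% of all these genes. UTRs were searched on the transcript strand. The windows below, from the GENCODE M21 transcripts, show the first TATTTAT of 4 of these genes in capitals with 8 bases on either side.
Fos, chr12:85477106-85477128, plus strand: tttcaattTATTTATtaagatgg
Jun, chr4:95049082-95049104, minus strand: cttgtgcaTATTTATaatagcgt
Ier3, chr17:35822484-35822506, plus strand: ctaattaaTATTTATgtatttat
Klf6, chr13:5868493-5868515, plus strand: acgtctctTATTTATgccttgag

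Dicer1 is needed to make the miR-290 family, which is abundant in mouse embryonic stem cells, and the miR-302 family, which shares its seed. Their mature sequences, from RefSeq (GRCm38.p6), are shown with the seed, bases 2 to 8, in capitals.
mmu-miR-294-3p: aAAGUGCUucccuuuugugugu
mmu-miR-295-3p: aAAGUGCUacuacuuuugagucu
mmu-miR-302b-3p: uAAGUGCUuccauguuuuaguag
A match to this seed, AGCACTT on the transcript strand, was found in the 3′ UTR of Ier3 and of Klf6, 1 copy each. It was found in 15.7% of the 10941 coding genes, at 0.135 matches per kb. The other 7 immediate early genes held no match in the transcript searched. The 3′ UTR of Klf6 had 3111 bases and that of Ier3 613, beside a median of 949 over the coding genes. Whether matches were more frequent in the immediate early genes than their UTR lengths give was not tested. Whether the matches bear on the levels of Klf6 and Ier3 was not tested either. The windows show the match in capitals.
Ier3, chr17:35822716-35822738, plus strand: cgtcttccAGCACTTcaactctg
Klf6, chr13:5869928-5869950, plus strand: aaaatcctAGCACTTgatttgct

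Promoters are shown for Jun and Klf6, the genes whose Dicer depleted libraries did not overlap WT libraries in exonic or intronic levels described next. Windows from 250 bases before to 50 after the start site, from RefSeq (GRCm38.p6), were searched for Fos, Jun, Junb, Ier3, Atf3, Dusp6 and Klf6. The promoters of Egr1 and Ier2 were not searched. Both strands were searched for the CArG box bound by serum response factor, the cAMP response element TGACGTCA, the AP-1 site TGANTCA and the EGR site GCGTGGGCG, none of which was found in these 7 windows. They occur in 1.63%, 1.79%, 7.81% and 0.612% of 32851 promoter windows of that length. Sites farther from the start site were not searched, so the search cannot show that these genes lack them. The letters TGACATCA are known as the AP-1 and ATF site of the Jun promoter and were searched after the windows were seen. They were found at positions -45 to -38 in Jun and -119 to -112 in Klf6, counted from 0 at the start site. Among all windows 3.62% held them, a share that is no test here because the Jun match was known beforehand. The match is in capitals.
Jun, chr4:95052173-95052472, minus strand: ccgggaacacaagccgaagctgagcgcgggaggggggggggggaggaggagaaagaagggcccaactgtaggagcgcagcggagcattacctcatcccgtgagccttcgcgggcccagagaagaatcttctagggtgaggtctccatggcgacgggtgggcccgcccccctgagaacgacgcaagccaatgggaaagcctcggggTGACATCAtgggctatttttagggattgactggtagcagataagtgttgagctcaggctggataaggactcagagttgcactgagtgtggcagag
Klf6, chr13:5861239-5861538, plus strand: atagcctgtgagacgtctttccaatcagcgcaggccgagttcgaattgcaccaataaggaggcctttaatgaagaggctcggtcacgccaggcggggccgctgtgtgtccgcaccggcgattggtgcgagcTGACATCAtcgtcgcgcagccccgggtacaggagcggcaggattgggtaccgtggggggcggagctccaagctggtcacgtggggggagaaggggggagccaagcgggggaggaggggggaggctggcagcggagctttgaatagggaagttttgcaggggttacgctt

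Jun was the gene whose exonic level separated the genotypes in every library of both fractions. Jun encodes the central subunit of AP-1, and its single-exon gene is known to be activated by JUN and ATF2 dimers through its own promoter. In labelled RNA, Dicer depleted libraries held 1.53 and 2.21 TPM in culture 1 and 1.54 and 2.43 TPM in culture 2 (10 and 15 minutes each time), against 0.335 and 0.220 TPM and 0.413 and 0.908 TPM in WT cultures 1 and 2. In preexisting RNA, Dicer depleted libraries held 1.05, 1.17, 1.06 and 1.33 TPM in the same order, against 0.635, 0.491, 0.106 and 0.468 TPM in WT libraries. Every Dicer depleted library lay above every WT library in both fractions. The means were 1.93 ± 0.0810 TPM in Dicer depleted and 0.469 ± 0.271 TPM in WT labelled RNA, a 4.11-fold ratio, and 1.15 ± 0.0587 TPM in Dicer depleted and 0.425 ± 0.195 TPM in WT preexisting RNA, a 2.71-fold ratio. Jun missed the filter, and without a filter its differences were 1.00 (SE 0.190, limma adjusted p = 0.174) and 0.61 (SE 0.190, adjusted p = 0.460) on the log2(TPM + 1) scale, so neither passed the threshold of 0.05. An exact two-sided permutation test over 2 against 2 cultures gave p = 0.333 in each fraction, the smallest this design allows.

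The share of genes that separate in this way by library sets the scale for that observation. Among 35900 genes with a mean of at least 0.1 TPM, all 4 Dicer depleted libraries lay above all 4 WT libraries for 9.07% in labelled RNA and for 5.07% in preexisting RNA. Of the 9 immediate early genes, 1 did so in each fraction, Jun both times. That is 1 of 9 in each fraction, near the share over all genes. The share of all genes that separated in both fractions at once was not computed. The summed level of 5 heat shock and handling stress genes ranged from 158 to 231 TPM in Dicer depleted and from 113 to 200 TPM in WT labelled RNA. In preexisting RNA it ranged from 280 to 390 TPM and from 207 to 352 TPM in the same genotypes. Most of the sum was Hsph1, at 116.5 to 213.3 TPM in Dicer depleted and 94.15 to 170.1 TPM in WT labelled RNA. Labelled Hspa1a held 0.22 to 0.864 TPM in Dicer depleted and 0.464 to 1.141 TPM in WT libraries. Each of the 5 genes overlapped between genotypes in both fractions, and the part of handling stress in these levels was not tested.

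**Figure D1:**
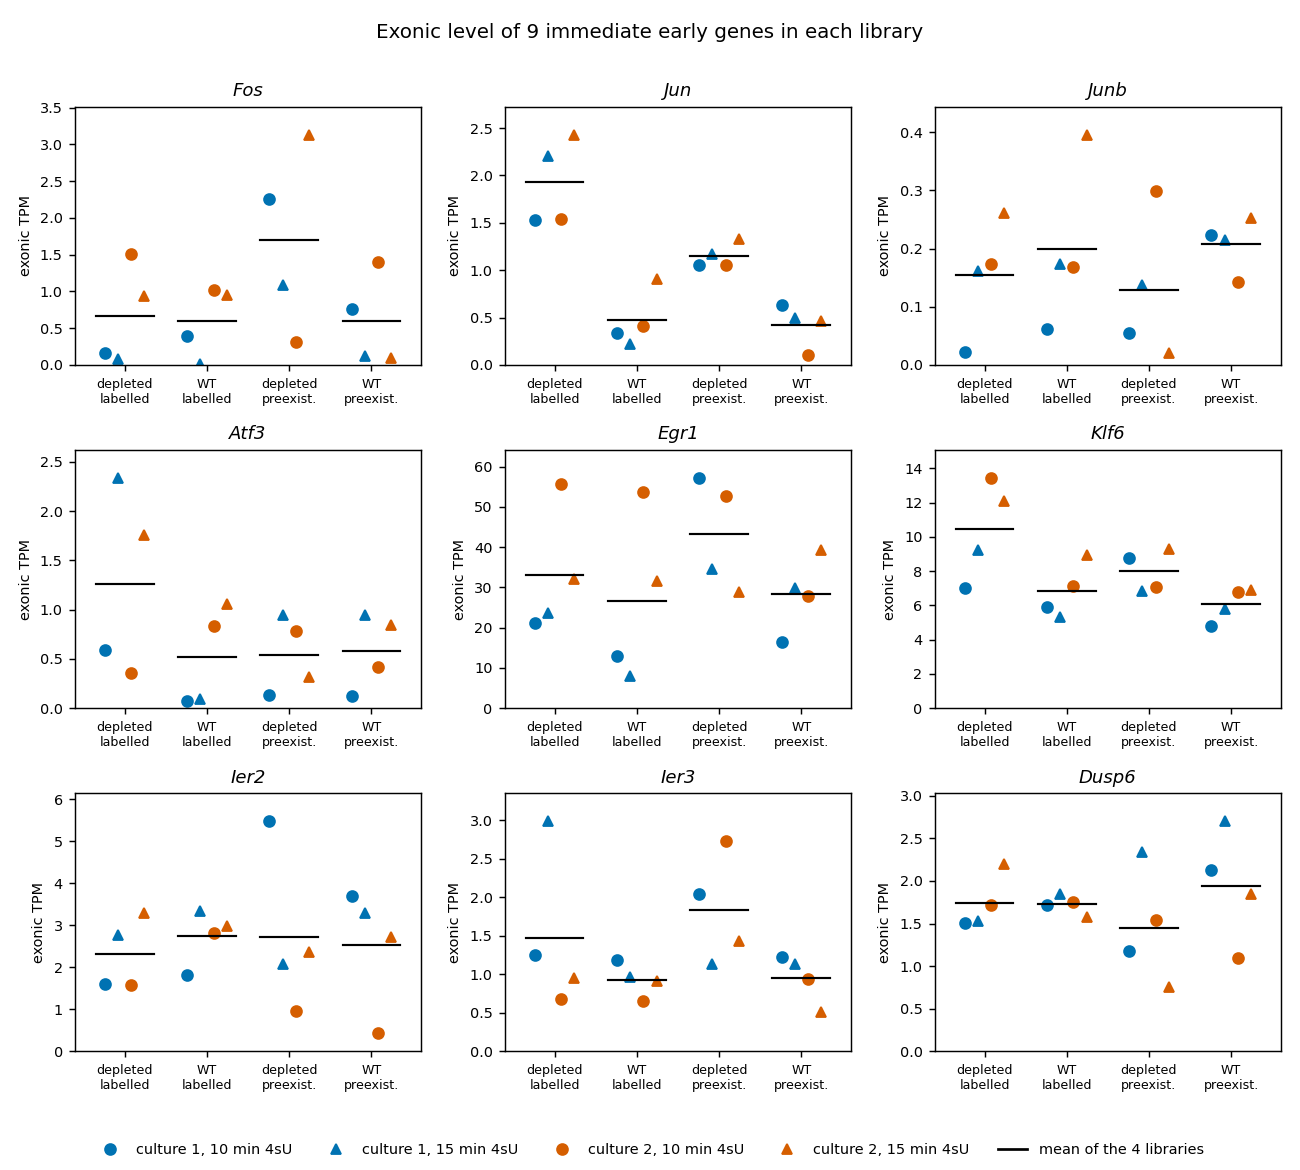
Exonic TPM of the 9 immediate early genes in each of 16 libraries, with a panel and a linear axis from 0 for each gene; colour marks the culture, the symbol marks 10 or 15 minutes of 4sU, and the black line is the mean of 4 libraries. Only in the Jun panel do all Dicer depleted points lie above all WT points in both fractions, and Egr1 reaches 55.8 and 53.7 TPM in the 10 minute labelled libraries of culture 2 of both genotypes.

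The partners of Jun did not separate. Fos, the AP-1 subunit that pairs with JUN, ranged from 0.079 to 1.505 TPM in Dicer depleted and from 0.015 to 1.02 TPM in WT labelled RNA. In preexisting RNA it held 2.26, 1.09, 0.317 and 3.13 TPM in the Dicer depleted libraries and 0.757, 0.115, 1.40 and 0.097 TPM in the WT libraries. The averages were 1.70 ± 0.0361 TPM in Dicer depleted and 0.593 ± 0.222 TPM in WT preexisting RNA, yet the libraries overlapped, and the 10 and 15 minute libraries of Dicer depleted culture 2 lay farther apart than the genotype means. Junb, an AP-1 subunit that can restrain JUN, stayed under 0.4 TPM in every library, with means of 0.154 ± 0.0891 TPM in Dicer depleted and 0.1998 ± 0.116 TPM in WT labelled RNA. Atf3, a stress-induced member of the ATF family that dimerises with JUN, reached 0.589, 2.34, 0.356 and 1.76 TPM in Dicer depleted labelled libraries and 0.073, 0.091, 0.838 and 1.06 TPM in WT labelled libraries. Both 15 minute Dicer depleted libraries were high, and the rest overlapped. In preexisting RNA Atf3 held 0.13, 0.944, 0.778 and 0.313 TPM in the Dicer depleted libraries and 0.124, 0.942, 0.417 and 0.844 TPM in the WT libraries. The means were 0.541 ± 0.00601 TPM in Dicer depleted and 0.582 ± 0.0689 TPM in WT cells. This SD of culture means does not show the spread between the 10 and 15 minute libraries.

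Egr1, which binds GC-rich promoters and is a direct target of ERK signalling, varied more between cultures than between genotypes in labelled RNA. Labelled libraries held 21.2 and 23.5 TPM in Dicer depleted culture 1 and 55.8 and 32.0 TPM in Dicer depleted culture 2. WT labelled libraries held 12.9 and 8.10 TPM in culture 1 and 53.7 and 31.5 TPM in culture 2. Culture 2 lay above culture 1 in each genotype, with culture means of 43.9 and 22.4 TPM in Dicer depleted cells and 42.6 and 10.5 TPM in WT cells. In preexisting RNA the Dicer depleted libraries held 57.2, 34.5, 52.7 and 28.9 TPM and the WT libraries 16.3, 29.7, 28.0 and 39.4 TPM. The genotypes overlapped there too, with means of 43.3 ± 3.58 TPM in Dicer depleted and 28.3 ± 7.52 TPM in WT cells. The difference was 0.55 (SE 0.576, limma adjusted p = 0.715) in labelled and 0.60 (SE 0.576, adjusted p = 0.641) in preexisting RNA on the log2(TPM + 1) scale.

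Klf6, a zinc finger factor known to restrain growth in several tissues and carrier of a seed match above, measured 7.03, 9.22, 13.4 and 12.1 TPM in Dicer depleted labelled libraries and 5.92, 5.32, 7.12 and 8.93 TPM in WT labelled libraries. Preexisting RNA held 8.76, 6.83, 7.06 and 9.30 TPM in Dicer depleted and 4.79, 5.76, 6.76 and 6.89 TPM in WT libraries. In both fractions 1 Dicer depleted library or more fell within the WT range, so the groups overlapped. The ratio of means was 1.53 in labelled and 1.32 in preexisting RNA. On the log2(TPM + 1) scale the difference was 0.54 (SE 0.280, limma adjusted p = 0.446) in labelled and 0.35 (SE 0.280, adjusted p = 0.569) in preexisting RNA.

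Ier3, which carries the other seed match and encodes a protein linked to survival under stress, averaged 1.47 ± 0.919 TPM in Dicer depleted and 0.929 ± 0.208 TPM in WT labelled RNA. Its preexisting RNA held 2.05, 1.13, 2.73 and 1.43 TPM in Dicer depleted and 1.23, 1.14, 0.942 and 0.511 TPM in WT libraries. The lowest Dicer depleted library lay at the level of the upper WT libraries, and the difference was 0.52 (SE 0.305, limma adjusted p = 0.423) on the log2(TPM + 1) scale. Ier2, a nuclear protein induced with Fos and Jun, averaged 2.31 ± 0.175 TPM in Dicer depleted and 2.73 ± 0.226 TPM in WT labelled RNA, with a difference of -0.19 (SE 0.378, adjusted p = 0.862). Its preexisting RNA spread from 0.952 to 5.48 TPM in Dicer depleted and from 0.445 to 3.70 TPM in WT libraries. Dusp6, the ERK phosphatase, showed nearly equal labelled means of 1.74 ± 0.310 TPM in Dicer depleted and 1.73 ± 0.0852 TPM in WT cells, a difference of 0.001 (SE 0.264, adjusted p = 1). Its preexisting means were 1.45 ± 0.432 TPM in Dicer depleted and 1.94 ± 0.666 TPM in WT cells, a difference of -0.28 (SE 0.264, adjusted p = 0.644).

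Across the 5 tested immediate early genes, none passed the limma threshold for Dicer depleted against WT cells in labelled RNA, where 0.128% of 21821 genes did, and none in preexisting RNA, where 0.646% did. At an unadjusted p under 0.05 the count was also 0 of 5 in each fraction, against 13.6% of all genes in labelled and 17.8% in preexisting RNA. At shares of this size, 0 of 5 is near the background. Differences were positive for 4 of 5 genes in each fraction, against 55.4% of all genes in labelled and 53.2% in preexisting RNA. Centring each library on its median turned Dusp6 to -0.11 in labelled and Ier2 to -0.02 in preexisting RNA. The median of the 5 was 0.28 in labelled and 0.35 in preexisting RNA, beside 0.06 and 0.04 over all genes tested. These values are on the log2(TPM + 1) scale, which understates changes of low genes. The labelled value reversed without 1 culture for Egr1, at -0.41 when WT culture 1 was left out and 1.5 when WT culture 2 was, and for Ier3, at -0.08 when Dicer depleted culture 1 was left out.

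**Figure D2:**
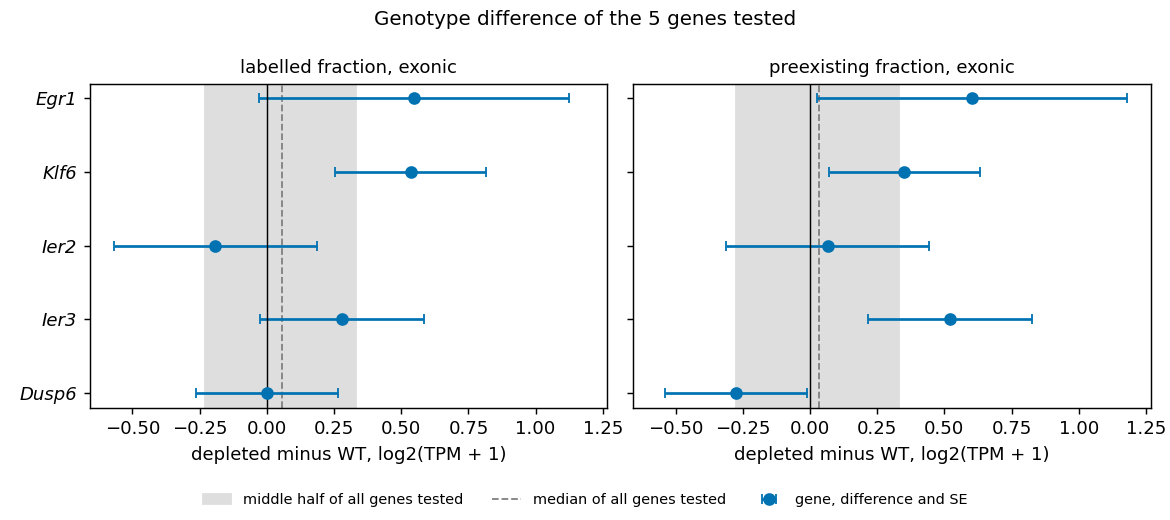
Difference between Dicer depleted and WT cells on the log2(TPM + 1) scale for the 5 tested genes, in labelled RNA (left) and preexisting RNA (right); points are limma estimates, bars their standard errors, the grey band spans the middle 50% of all 21821 genes and the dashed line is their median. Egr1 and Klf6 lie at 0.55 and 0.54 in labelled RNA, and Dusp6 at 0.001 and -0.28 in the labelled and preexisting panels.

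Fast turnover was examined by setting labelled against preexisting RNA, since a short-lived transcript makes up a larger share of the RNA made within minutes than of the RNA already present. By that measure the median of the 5 tested genes was close to that of the coding genes. In WT cells the difference was 0.19 for Ier2, 0.14 for Klf6, -0.01 for Ier3, -0.08 for Dusp6 and -0.37 for Egr1 on the log2(TPM + 1) scale, with standard errors of 0.280 to 0.576. Their median of -0.01 lay beside -0.02 over the 11279 coding genes tested and 0.24 over all 21821 genes. Each of the 5 lay below the middle of all genes, from the 20.4 percentile for Egr1, under the lower quartile of -0.27, to the 48.2 percentile for Ier2. With each library centred on its median, Klf6 turned to -0.34 and Ier2 to -0.29. None of the 5 was called, against 34.1% of all genes (limma, either direction). In Dicer depleted cells the difference was 0.32 for Klf6, 0.19 for Dusp6, -0.07 for Ier2, -0.25 for Ier3 and -0.43 for Egr1, and centring turned Klf6 to -0.18 and Dusp6 to -0.31. Again none of the 5 was called, against 41.1% of all genes, and the median was -0.07 beside -0.045 over the coding genes and 0.28 over all genes. There the 5 spanned the 21.2 percentile of all genes for Egr1 to the 51.7 percentile for Klf6. At an unadjusted p under 0.05 the count was 0 of 5 in each genotype, against 43.9% of all genes in WT and 49.7% in Dicer depleted cells.

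The 12 transcripts listed as long-lived housekeeping genes are set beside them in the same comparison. Of these, 6 were lower in labelled than in preexisting WT RNA and none higher, with a median of -0.82 on the log2(TPM + 1) scale, where 7.98% of all genes were called lower. With each library centred on its median, 11 of the 12 were called lower, as were 23.6% of all genes. Actb, the cytoskeletal actin, averaged 405 ± 12.3 TPM in labelled and 1525 ± 131 TPM in preexisting WT RNA (log2 difference -1.90, limma adjusted p = 6.48e-04, and 0.0570 and 0.0661 without WT culture 1 or 2). No gene at all was called in this WT comparison once either WT culture was left out. In Dicer depleted cells 8 of 12 were lower, with a median of -0.95. No test of the immediate early genes against the housekeeping genes was made.

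The cultures disagreed on the labelled to preexisting difference for most of the 9 genes. For Egr1 it was -0.96 and 0.11 in Dicer depleted cultures 1 and 2, and -1.04 and 0.30 in WT cultures 1 and 2. Ier2 showed the same split, with -0.51 and 0.38 in Dicer depleted and -0.36 and 0.75 in WT cultures. Jun gave 0.44 and 0.43 in Dicer depleted cultures, against -0.29 and 0.37 in WT cultures. Atf3 gave 0.64 and 0.34 in Dicer depleted cultures, against -0.45 and 0.27 in WT cultures. In WT cells, culture 2 lay above culture 1 for each of the 9 genes. The median over all genes tested moved the same way, at 0.317 without WT culture 1 and 0.149 without WT culture 2. The share of all genes with this order was not computed. The difference between genotypes in this ratio ranged from -0.26 for Ier2 to 0.28 for Dusp6, none of the 5 was called (limma adjusted p = 0.9999 for each), and 0.00458% of all genes were. None of the 5 had an unadjusted p under 0.05, against 3.02% of all genes.

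**Figure D3:**
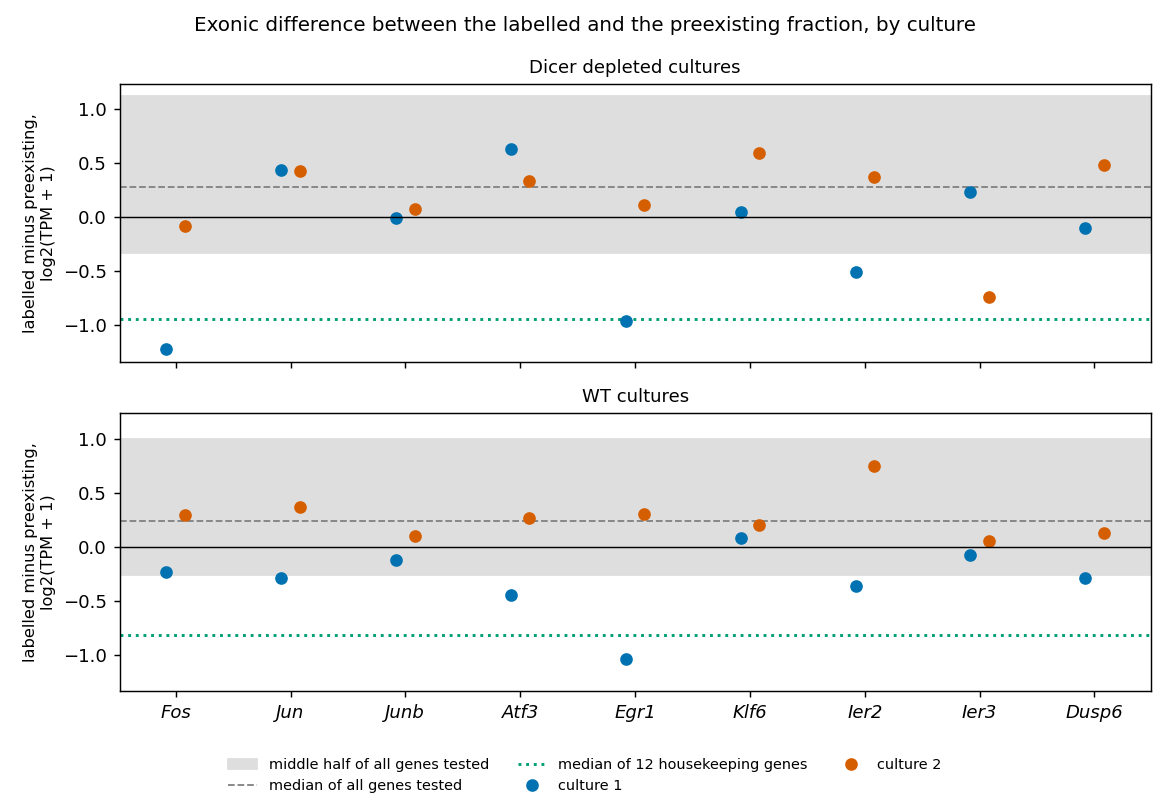
Labelled minus preexisting exonic level on the log2(TPM + 1) scale for each of the 9 genes in each culture, with Dicer depleted cultures above and WT cultures below; the grey band spans the middle 50% of all genes tested, the dashed line their median and the dotted line the median of 12 housekeeping genes. Culture 1 points of Egr1 lie at -0.96 and -1.04, below the dotted lines, while culture 2 points lie at 0.11 and 0.30.

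Labelling for 15 rather than 10 minutes changed none of the 5 tested genes past the threshold, where 0.0687% of all genes were called. Ier2 held 2.77 and 3.29 TPM at 15 minutes and 1.61 and 1.58 TPM at 10 minutes in Dicer depleted cultures 1 and 2. In WT cultures 1 and 2 it held 3.34 and 2.98 TPM at 15 minutes and 1.81 and 2.81 TPM at 10 minutes. It was higher at 15 minutes in 4 of 4 cultures, with a mean difference of 0.49 on the log2(TPM + 1) scale (limma adjusted p = 0.419), and was the 1 of 5 with an unadjusted p under 0.05, a level that 10.2% of all genes reached. Egr1 was lower at 15 minutes in 3 of 4 cultures, with a mean difference of -0.50 (adjusted p = 0.833). Atf3, below the filter, differed by 1.07 and 1.03 between 15 and 10 minutes in Dicer depleted cultures 1 and 2, and by 0.02 and 0.16 in WT cultures.

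Introns report unspliced, recently made RNA, and 4 of the 6 genes with intronic entries had higher mean intronic levels in labelled than in preexisting RNA of both genotypes. Egr1 and Klf6 passed the filter of 1 TPM in intronic entries, and in WT cells both rose in labelled against preexisting RNA. Klf6 introns held 1.26, 0.890, 2.20 and 2.06 TPM in labelled and 0.085, 0.051, 0.032 and 0.037 TPM in preexisting WT libraries (log2 difference 1.27, SE 0.249, limma adjusted p = 0.0014). Egr1 introns held 0.767, 0.632, 7.87 and 1.26 TPM in labelled WT libraries and were listed at 0 in both culture 1 and at 0.122 and 0.247 TPM in both culture 2 preexisting WT libraries (log2 difference 1.34, SE 0.551, adjusted p = 0.0457). Thus 2 of 2 were called higher, as were 94.1% of the 12472 genes tested, and their values lay below the median of 1.63 over those genes. Without WT culture 2 the Egr1 difference was 0.76 (adjusted p = 0.324), and with each library centred on its median intronic level neither was called, at -0.44 for Klf6 and -0.37 for Egr1. Centring left 2437 genes higher and 3412 lower over all genes tested, where 11736 were higher and 79 lower without it.

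Between genotypes, the Klf6 introns separated in labelled RNA. Dicer depleted labelled libraries held 4.17, 2.35, 3.80 and 3.23 TPM, all above the highest WT labelled library at 2.20 TPM. The means were 3.39 ± 0.183 TPM in Dicer depleted and 1.602 ± 0.748 TPM in WT cells, and the log2(TPM + 1) difference of 0.77 (SE 0.249) had a limma adjusted p of 0.0952. Of the 5 immediate early genes with introns and a mean of at least 0.1 TPM, 1 separated in this way, as did 24.5% of 21673 genes. Ier3 is among these 5 but was listed at 0 in every labelled library, so it could not separate. The whole intronic signal was higher in Dicer depleted labelled libraries, with a median difference of 0.28 over all genes tested, and with centring the Klf6 difference was 0.49 (adjusted p = 0.448, and 0.0338 to 0.448 over the alternatives tried). None of 2 genes was called here, against 4.23% of all genes, and none of 2 in preexisting RNA, against 0.016%. At an unadjusted p under 0.05 the counts were 1 of 2, Klf6, in labelled introns, against 31.5% of all genes, and 0 of 2 in preexisting introns, against 21.2%.

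Egr1 introns were also examined between genotypes and held 0.970, 2.59, 14.8 and 2.75 TPM in Dicer depleted labelled libraries, beside the WT values above, and the 10 minute libraries of culture 2 were the highest in both genotypes. Dusp6 introns averaged 1.49 ± 0.102 TPM in Dicer depleted and 0.741 ± 0.165 TPM in WT labelled RNA, with overlapping libraries (0.648 to 2.47 TPM and 0.184 to 1.08 TPM). Dusp6 did not pass the intronic filter, and without a filter its difference of 0.50 (SE 0.086) had a limma adjusted p of 0.0404, where 8.69% of all genes were called. Atf3 introns averaged 1.37 ± 0.571 TPM in Dicer depleted and 0.666 ± 0.372 TPM in WT labelled RNA, and also overlapped. In preexisting RNA the Atf3 means were 0.0522 TPM in Dicer depleted and 0.0105 TPM in WT cells, and the Dusp6 introns were listed at 0 in 6 of 8 libraries. Fos introns were listed at 0 in 15 of 16 libraries. Ier3 introns were listed at 0 in 15 libraries and at 8.19 TPM in 1 Dicer depleted preexisting library, culture 1 at 10 minutes.

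**Figure D4:**
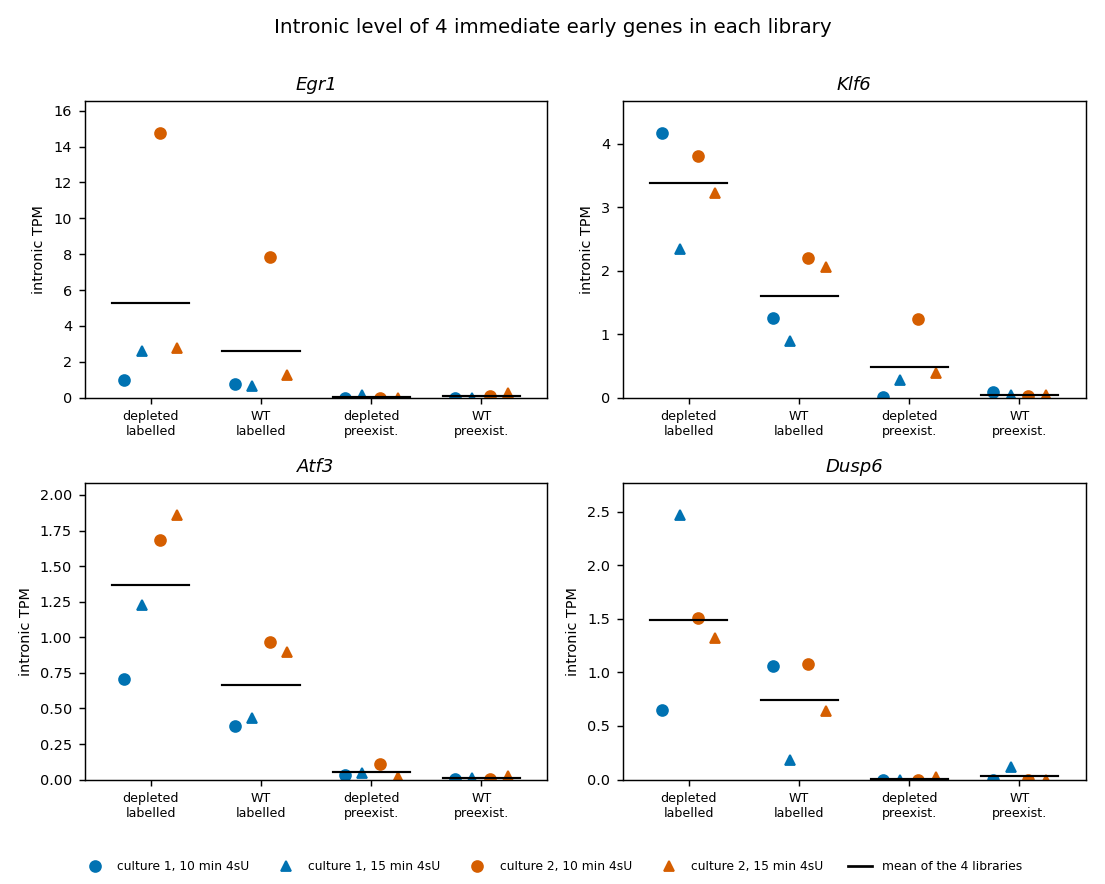
Intronic TPM of Egr1, Klf6, Atf3 and Dusp6 in each of 16 libraries, drawn as for the exonic levels, with a linear axis from 0 in each panel. Labelled libraries lie above preexisting ones for Egr1, Atf3 and Dusp6, and the 4 Dicer depleted labelled Klf6 points, 2.35 to 4.17 TPM, lie above the 4 WT labelled points, 0.890 to 2.20 TPM.

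The wider pathway was described from 4 further lists. Of 49 other immediate early genes, 35 were tested. Of these, 1 was called higher in Dicer depleted than in WT preexisting RNA, as were 0.5% of all genes. That gene was Hes1, a transcriptional repressor downstream of Notch, with 8.99 ± 0.0212 TPM in Dicer depleted and 2.87 ± 0.495 TPM in WT cells (log2 difference 1.37, limma adjusted p = 0.0472). Of the alternatives run, only a replicate block kept the Hes1 call (adjusted p = 0.0426). The others gave 0.0523 to 0.440, among them 0.202 to 0.425 with 1 culture left out. In labelled RNA none was called, where 0.128% of all genes were. There 28 of the 35 differences were positive, against 55.4% of all genes, with a median of 0.40 beside 0.06 over all genes. In preexisting RNA 29 of 35 were positive, against 53.2% of all genes, with a median of 0.37 beside 0.04. Rhob, a small GTPase, had the largest labelled difference of 1.75 (adjusted p = 0.108), and Ccn1, a matrix protein, one of 1.52 in preexisting RNA (adjusted p = 0.0671). Set labelled against preexisting in WT cells, the antiproliferative genes Btg1 at 1.26 (adjusted p = 0.0119) and Btg2 at 0.75 (adjusted p = 0.0493) were higher and the pluripotency factor Klf4 at -0.89 (adjusted p = 0.0147) was lower, and the median of the 35 was -0.03. These 3 of 35 stood against 34.1% of all genes called in that comparison. Centring left 1 of the 35 higher, Btg1, and 7 lower, and turned the adjusted p of Btg2 to 0.392. Btg1 averaged 4.53 ± 1.65 TPM in labelled and 1.26 ± 0.111 TPM in preexisting WT RNA.

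Of 14 ERK feedback and target genes, which include Egr1 and Dusp6, 12 were tested and none was called between genotypes in exonic levels. Phlda1, an ERK-induced gene, had exonic differences of 1.76 in labelled (adjusted p = 0.238) and 1.81 in preexisting RNA (adjusted p = 0.133), and its introns in labelled RNA were called higher in Dicer depleted than in WT cells at 1.75 (limma adjusted p = 0.0431). In WT cells 2 of the 12 were lower in labelled than in preexisting RNA, the ETS factor Etv5 at -1.32 (adjusted p = 0.00299) and the ERK pathway inhibitor Spred2 at -1.10 (adjusted p = 0.00571), against 7.98% of all genes called lower. Centring left 6 of the 12 lower, against 23.6% of all genes. All 23 upstream kinases and factors were tested. Elk4, a partner of serum response factor at immediate early promoters, was called higher in preexisting RNA, with 46.9 ± 6.39 TPM in Dicer depleted and 13.8 ± 0.571 TPM in WT cells (log2 difference 1.69, adjusted p = 0.0347). That Elk4 call was lost without any 1 of the 4 cultures (adjusted p = 0.190 to 0.388), with only the groups compared (0.440), with 10 or 15 minute libraries alone (0.113 and 0.272) and with no filter (0.0603). The other 22 were not called in that comparison, where 0.646% of all genes were. None of the 23 was called in labelled exonic RNA, where Elk4 differed by 0.57 (limma adjusted p = 0.294). The Elk4 introns in labelled RNA were called higher in Dicer depleted than in WT cells at 0.82 (adjusted p = 0.0488). Against a median rise of 0.28 and 4.23% of all genes called in labelled introns, neither call was kept with centring, where Phlda1 differed by 1.46 (adjusted p = 0.161) and Elk4 by 0.54 (adjusted p = 0.311). With 1 culture left out the Phlda1 introns had adjusted p of 0.00914 to 0.241 and the Elk4 introns 0.124 to 0.281. Of 9 AU-rich element binding proteins, none was called between genotypes in exonic levels. In WT cells 3 of the 9 were lower in labelled than in preexisting RNA, among them Khsrp, which recruits decay enzymes, at -1.39 (adjusted p = 0.00436), against 7.98% of all genes. Centring left 6 of the 9 lower, against 23.6%. The calls of Btg1, Btg2, Klf4, Etv5, Spred2 and Khsrp were each lost without WT culture 1 or 2.

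The mean profile of the 5 tested genes over the 16 libraries was most like those of Ttll3 (Pearson's r = 0.837), Amotl2 (0.827), Wsb2 (0.818), Zfp553 (0.817) and Nfic (0.815) among 7514 genes with a mean of at least 5 TPM. The 16 libraries share cultures and are not independent, so these values only describe the libraries.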

How the data were processed

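RNA labelled with 4sU and preexisting RNA were sequenced from 2 Dicer depleted and 2 WT mouse embryonic stem cell cultures, and the microRNA counts of 15 small RNA libraries were not used here. Per the labels' protocols and the submitters' processing notes, the authors removed ribosomal reads with STAR 2.5.0 and quantified exonic and intronic sequences with RSEM, on mm10. The deposited values are named TPM, yet 10 units of this deposited signal make 1 TPM, so they were divided by 10. Entries were matched to GENCODE M21 (110366 of 121429 exonic and 89935 of 91702 intronic) and summed per gene. Unmatched entries held 5.97 to 7.73% of the signal. Each was kept as a row of its own and counted as a gene in the fits and in all shares over all genes. Values at 10 and 15 minutes were averaged per culture on the log2(TPM + 1) scale, and the 8 resulting values in 4 groups were fitted with limma 3.58.1 (trend, R 4.3.3) over genes with a mean of at least 1 TPM (21821 exonic, 12472 intronic). The 15 against 10 minute comparison used the 8 labelled libraries. P-values are two-sided and adjusted by Benjamini and Hochberg over all genes tested, with a threshold of 0.05, for 9 comparisons. The script was tested on simulated data. Named genes were the 9 genes, Dicer1 and up to 4 members of each list. The genes and lists were chosen with earlier results of these data known. Alternatives were other pseudocounts, filters, centring, labelling times, blocks, left-out cultures and summed exonic and intronic entries. Since depth is unknown, counting intervals are not given.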

Additional observations from a re-analysis of the deposited data

How the results depend on the processing

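The counts of immediate early genes called kept their value in most settings. Exceptions were the depleted labelled to preexisting comparison with exonic and intronic entries summed (2 of 6, with Dusp6 at 0.80, adjusted p = 0.0231, against 55.1% of all genes), the labelled intronic genotype comparison with a pseudocount of 5 TPM (1, Klf6 at 0.34, adjusted p = 0.0338) or no filter (1, Dusp6), and the WT intronic comparison, with 1 at a pseudocount of 5 TPM, 0 with centring, 1 with 10 minute libraries and 1 to 2 with cultures left out. Without a filter 3 of 6 were called there, Atf3 (adjusted p = 0.0354), Dusp6 (0.00117) and Klf6 (0.0114), against 69.2% of all genes, and Egr1 lost its call (0.130). The cause was not tested. Of the single gene values, 415 kept direction and call, 48 reversed, 4 weakened and 2 strengthened.

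Between genotypes, reversed values were -0.003 (pseudocount 0.1), -0.105 (centred) and -0.071 (10 minutes) for Dusp6 in labelled RNA. In preexisting RNA they were -0.016 (centred) and -0.315 (15 minutes) for Ier2 and -0.113 (15 minutes) for Egr1. In the ratio, 15 minute libraries gave 0.181 for Ier3, 0.840 for Egr1 and 0.268 for Ier2, and summed entries gave 0.003 for Egr1. For labelled against preexisting in WT, centring gave -0.344 for Klf6 and -0.291 for Ier2, 10 minutes 0.096 for Dusp6 and 0.300 for Egr1, 15 minutes 0.112 for Ier3, a pseudocount of 0.1 gave 0.000 for Ier3, and summed entries 0.246 for Dusp6. In depleted cells centring gave -0.184 for Klf6 and -0.314 for Dusp6, and 15 minutes 0.292 for Ier3 and 0.324 for Ier2. Centred WT introns gave -0.436 for Klf6 and -0.368 for Egr1.

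With 1 culture left out, ranges that crossed 0 were -0.084 to 0.644 (Ier3), -0.112 to 0.114 (Dusp6) and -0.407 to 1.5 (Egr1) in labelled and -0.411 to 0.544 (Ier2) in preexisting RNA between genotypes. In the ratio they were -0.727 to 0.613 (Egr1), -0.814 to 0.297 (Ier2), -0.087 to 0.456 (Klf6), -0.725 to 0.244 (Ier3) and -0.014 to 0.565 (Dusp6). Labelled against preexisting, they were -0.073 to 0.053 (Ier3), -0.289 to 0.124 (Dusp6), -1.037 to 0.302 (Egr1) and -0.363 to 0.748 (Ier2) in WT, and -0.961 to 0.112 (Egr1), -0.510 to 0.378 (Ier2), -0.735 to 0.234 (Ier3) and -0.097 to 0.482 (Dusp6) in depleted cells. Egr1 introns spanned -0.051 to 1.48 in labelled and -0.190 to 0.052 in preexisting RNA, and Klf6 at 15 against 10 minutes -0.030 to 0.214.

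The labels number 2 cultures per genotype. Deviations of same-numbered cultures correlated between genotypes at 0.16 in labelled and 0.22 in preexisting RNA, so the numbers were not taken as pairs. Between the labelled and preexisting RNA of a genotype they correlated at 0.4 in WT and 0.05 in Dicer depleted cells. For labelled against preexisting, a block by culture gave 6263 higher and 2134 lower genes in WT, against 5692 and 1742 without it. In depleted cells it gave 7217 and 2919, against 6565 and 2407. A replicate block gave 0 genes called between genotypes in exonic and intronic levels and 2 in WT introns, and changed no other call of these genes. Over all genes the block gave 267 called in preexisting exonic RNA against 141 without it, 1256 higher and 20 lower against 522 and 6 in labelled introns, and 143 higher and 2 lower against 2 and 0 in preexisting introns. Over all settings, the genes called ranged from 0 to 257 in labelled and 0 to 267 in preexisting exonic RNA, 0 to 128 in the ratio, 0 to 12435 and 4086 to 13829 for labelled against preexisting in WT and depleted cells, 1 to 2786 and 0 to 882 in labelled and preexisting introns, 4834 to 20605 in WT introns and 1 to 110 for 15 against 10 minutes. Centring left 3397 higher and 5147 lower genes for labelled against preexisting in WT, against 5692 and 1742 without it, and 4056 and 6011 against 6565 and 2407 in depleted cells; the median over all genes moved to -0.25 in WT, against 0.24 without it. Between genotypes it left 21 higher and 19 lower genes in preexisting RNA, against 109 and 32, 9 and 6 in labelled RNA, against 20 and 8, and 1 and 0 in labelled introns, against 522 and 6. For the ratio, a fit of only the groups compared equals the one given, and a filter at 5 TPM left no intronic value of these genes. The unknown depth limits the low genes Fos, Jun, Junb and Atf3 most.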
